A study of Mus musculus with 2 samples.

Results

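The genes described are 9 that mark the epithelium of the thymus. They comprise 6 transcription factors or cofactors of epithelial identity (Foxn1, Pax1, Pax9, Eya1, Trp63 and Hoxa3) and 3 products of cortical epithelium (Prss16, Tbata and Ly75). They were taken by symbol from a given list, and 9 of 9 were found among the 43346 genes of the gene tables, with 44 of the 103639 transcripts of the transcript tables. The samples were 2 RNA-seq libraries of thymus from C57BL/6J mice, an inbred strain, at 8 weeks of age, named biological replicates 1 and 2. Each library pooled male and female littermates, the labels name no treatment or engineered allele, and there is 1 group, so the values describe whole adult thymus and the spread between its libraries. The labels give 1 donor entry for both libraries, so that spread may be technical in part. The libraries were stranded, made from polyadenylated RNA over 200 nucleotides and read as pairs of 76 bases, and they held 48.6 M and 62.1 M fragments assigned to genes in replicates 1 and 2.

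The thymic epithelium is a mesh of cells, derived from endoderm of the pharyngeal pouches, in which developing T cells are guided and selected. A network of Hox, Pax and Eya factors acts in the pouch, and Foxn1, the forkhead factor mutated in nude mice, then drives the differentiation of both cortical and medullary epithelium. Cortical cells present self peptides made by specialised proteases for positive selection, and medullary cells display tissue antigens for tolerance. Such cells are a small minority of the organ, and in bulk RNA fewer cells of a type and less RNA per cell cannot be told apart. Markers of thymocytes and of epithelium were both present: the 6 thymocyte markers had a median of 379 TPM (a level scaled for transcript length and depth), and the 8 general epithelial markers had a median of 18.4 TPM. All 8 epithelial markers reached 1 TPM, from Krt8 at 201 and 232 TPM to Esrp1 at 3.10 and 3.42 TPM in replicates 1 and 2.

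All 9 genes averaged at least 1 TPM and 7 averaged at least 10 TPM, although their levels covered a range from 2.89 TPM for Hoxa3 to 678 TPM for Tbata. The products Prss16 and Tbata stood well above the rest and held 88.6% and 91.0% of the summed TPM of the 9 genes in replicates 1 and 2. The 6 factors together summed to 132 and 136 TPM. The median of the 9 means was 16.2 TPM, beside a median of 13.6 TPM over the 14360 genes that averaged at least 1 TPM. By mean level the order was Tbata, Prss16, Pax1, Foxn1, Trp63, Ly75, Pax9, Eya1 and Hoxa3. Tbata and Prss16 changed places between the libraries, as did Trp63 and Ly75, and the values of every other pair of neighbours did not overlap.

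**Figure D1:**
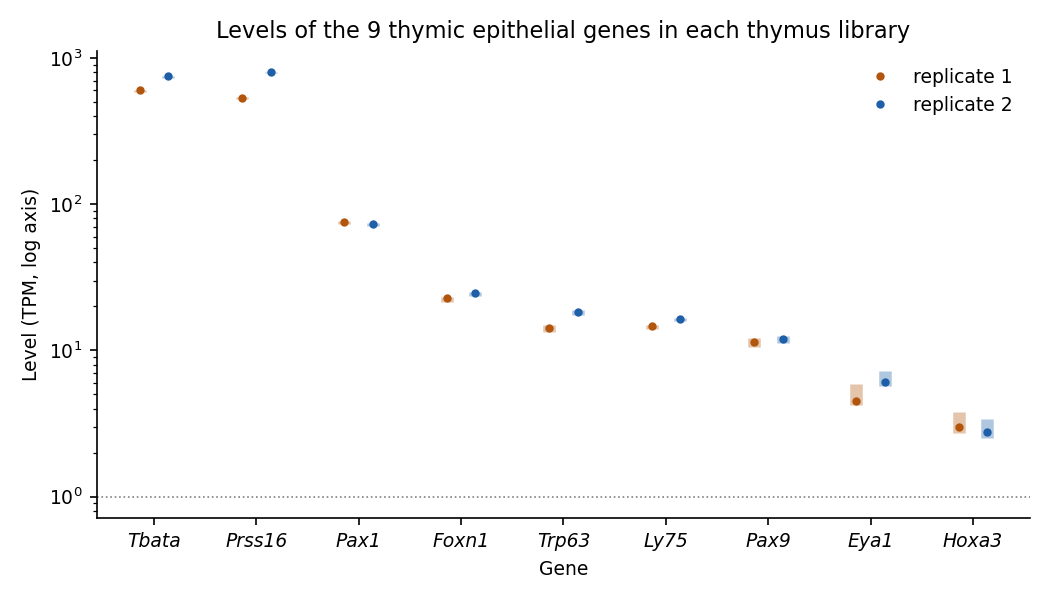
Level of each gene in TPM on a log axis in replicate 1 (orange, left) and replicate 2 (blue, right). Pale bars are the intervals deposited with the TPM, which are shorter than the symbols for most genes, and the dotted line marks 1 TPM. Prss16 and Tbata lie between 537 and 801 TPM, and the 7 other genes lie at or below 75.9 TPM.

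Foxn1 (ENSMUSG00000002057, minus strand of chromosome 11 from 78357577 to 78386558 on mm10) had 22.7 TPM in replicate 1 and 24.7 TPM in replicate 2, a mean of 23.7 ± 1.41 TPM (SD, n = 2). These levels rested on 2382 and 3592 fragments. The factor sat in the middle of the organ's expressed genes, with 62.2% of genes at 1 TPM or more below it. Its single transcript in the tables has 9 exons and codes for 648 amino acids. Of the other forkhead N genes, Foxn3 had 78.7 and 56.5 TPM, Foxn2 had 9.97 and 8.57 TPM, and Foxn4 had 0.20 and 0.16 TPM in replicates 1 and 2. By TPM, Foxn1 was thus second to Foxn3 in its subfamily in whole thymus. By fragments, which are not scaled for length, Foxn3 had 2413 in replicate 1 and 2359 in replicate 2. Foxn1 was thus close to Foxn3 by fragments in replicate 1 and above it in replicate 2.

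Pax1 and Pax9 are closely related paired-box factors of the pouch endoderm, both needed for a normal thymus in mice. Pax1 (ENSMUSG00000037034, plus strand of chromosome 2 from 147361925 to 147393295) was the most abundant of the 6 factors, with 75.9 and 72.8 TPM in replicates 1 and 2 (74.3 ± 2.19 TPM, SD, n = 2). Pax9 (ENSMUSG00000001497, plus strand of chromosome 12 from 56691767 to 56712822) had 11.5 and 11.9 TPM (11.7 ± 0.297 TPM, SD, n = 2). Pax1 exceeded Pax9 by 6.60-fold in replicate 1 and 6.11-fold in replicate 2. Among the 7 other Pax genes, Pax5, which specifies B cells, was highest with 3.62 and 2.13 TPM, Pax7 followed with 1.01 and 0.88 TPM, and the 5 others lay at or below 0.12 TPM in either library.

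Nearly all Pax1 RNA was assigned to transcript Pax1-201, which held 94.3% and 94.9% of the gene's TPM in replicates 1 and 2. Pax1-202, which starts 3069 bases further upstream, held 4.85% and 4.23%. The start of Pax1-201 is also the RefSeq start, and the 250 bases before it (GRCm38.p6, chr2:147364744-147364993, plus strand) are shown as the window before the start that carried the RNA, with the 5 letters GACGC, the core recognised by FOXN1, in capitals.
Pax1: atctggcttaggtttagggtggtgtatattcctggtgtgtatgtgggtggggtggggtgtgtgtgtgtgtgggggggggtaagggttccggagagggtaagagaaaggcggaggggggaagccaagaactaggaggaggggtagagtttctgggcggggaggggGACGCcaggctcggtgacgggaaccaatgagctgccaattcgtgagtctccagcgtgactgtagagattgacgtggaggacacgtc
GACGC was searched on both strands, and shares no overlap with the other motif searched, TATAAA. It occurs once in this window, at position -86 from the start, and was found in 22.6% of all 32851 RefSeq windows of this length. Of the 6 genes with a window (Foxn1, Pax1, Pax9, Hoxa3, Tbata and Ly75), Pax1 and Hoxa3 held a match. TATAAA, the core of the TATA box, was in none of the 6 windows and in 12.4% of all.

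The assignment of Pax9 RNA was different. A transcript that GENCODE classes as a retained intron, Pax9-202, held 85.9% of the gene's TPM in replicate 1 and 86.6% in replicate 2. By fragments its share was 76.3% and 77.4%. The protein-coding transcripts Pax9-201 and Pax9-203 together held 14.1% and 13.4% of TPM, or 1.62 and 1.6 TPM. Pax9-202 keeps an intron of 709 bases (chr12:56695865-56696573) and also ends 2476 bases before the end of Pax9-201, so the tables alone do not show which of these features drew the fragments. The ends of the kept intron are shown because that intron is among the features that separate the leading transcript from the coding ones. Intron bases are in capitals.
Pax9 intron, 5′ end (chr12:56695855-56695884, plus strand): agagcaatggGTGAGTGGCTGATGGGGGAC
Pax9 intron, 3′ end (chr12:56696554-56696583, plus strand): GCTCTGTGCTCCTTTTGCAGagccagcctt
The intron opens with GT and closes with AG, the usual splice signals. The coding start of Pax9-201, which opens a frame of 342 amino acids, lies in the exon just before it, and the same frame read on into the kept intron meets a stop after 34 codons.

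Eya1, a phosphatase and transcriptional coactivator, is required for thymus formation in mice. It had 4.53 and 6.06 TPM in replicates 1 and 2 (5.295 ± 1.08 TPM, SD, n = 2), from 356 and 633 fragments (ENSMUSG00000025932, minus strand of chromosome 1 from 14168954 to 14310235). Its paralogs Eya2 (55.7 and 67.9 TPM) and Eya3 (47.6 and 48.6 TPM) were higher in both libraries, and Eya4 was lower (2.25 and 2.49 TPM). Transcript Eya1-209, which starts 5665 bases downstream of Eya1-203, held 62.1% and 63% of Eya1 TPM. Transcripts that start at this second position held 68.7% and 75.9% of TPM, and 56.5% and 61.2% of fragments. The share of Eya1-209 was 55.0% and 58.2% by fragments, and 54.2% and 57.9% by posterior mean TPM.

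Hoxa3, the homeobox factor whose loss leaves mice without a thymus, was the lowest of the 9, with 3.01 and 2.77 TPM in replicates 1 and 2 (2.89 ± 0.170 TPM, SD, n = 2) from 250 and 318 fragments. It lies on the minus strand of chromosome 6 from 52169062 to 52213336 (ENSMUSG00000079560), and its span also holds Hoxa4, Hoxa5 and Hoxa6 on the same strand and several antisense genes. Of the 10 other Hoxa genes, Hoxa7 was close to it with 3.78 and 2.66 TPM, Hoxa4 had 1.03 and 1.21 TPM, Hoxa5 had 1.25 and 0.84 TPM, and Hoxa2 had 0.76 and 1.17 TPM. Hoxa10 and Hoxa11 had no fragment in either library. The other Hox3 genes were lower than Hoxa3, with 0.93 and 0.83 TPM for Hoxb3 and 0.49 and 0.43 TPM for Hoxd3. Hoxa3-201 held 99.3% and 98.9% of Hoxa3 TPM.

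Trp63 encodes p63, the p53 relative that maintains progenitors of stratified and thymic epithelium. It had 14.2 and 18.2 TPM in replicates 1 and 2 (16.2 ± 2.84 TPM, SD, n = 2) from 2016 and 3340 fragments (ENSMUSG00000022510, plus strand of chromosome 16 from 25683763 to 25892102). Its relatives Trp53 (254 and 210 TPM) and Trp73 (1.14 and 0.81 TPM) lay far above and far below it. The gene has an upstream start, which gives the TA forms with the transactivation domain, and an internal start 118153 bases further on, which gives the ΔN forms. The share of Trp63 TPM from the internal start was 97.4% in replicate 1 and 98.5% in replicate 2, against 2.60% and 1.54% for the upstream one. In TPM these were 13.9 and 18 for the internal start, against 0.37 and 0.28 for the upstream start. The full-length TA transcript with the long end, Trp63-208, was listed at 0 in both.

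The opening 60 coding bases of the ΔN and TA forms are shown because nearly all Trp63 RNA was assigned to the ΔN form; capitals mark the bases that precede the exon which both forms share.
Trp63-201, ΔN (coding start at chr16:25802060): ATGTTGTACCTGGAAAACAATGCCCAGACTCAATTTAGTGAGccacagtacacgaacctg
Trp63-208, TA (coding start at chr16:25684290): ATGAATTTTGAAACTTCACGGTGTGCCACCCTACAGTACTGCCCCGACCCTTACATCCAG
The ΔN form has 14 codons of its own before the shared exon and 586 in all. The TA form has 108 codons before the shared exon and 680 in all.

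Among the ΔN transcripts the one with the highest TPM changed between the libraries. In each library the deposited intervals of Trp63-205 and Trp63-201 overlapped each other, so which of them leads is not settled. Trp63-205 held 51.3% of Trp63 TPM in replicate 1 and 34.0% in replicate 2, whereas Trp63-201 held 31.2% and 40.3%. The 2 differ by 12 bases (chr16:25866200-25866211), shown in capitals with the flanking coding bases.
Trp63-201: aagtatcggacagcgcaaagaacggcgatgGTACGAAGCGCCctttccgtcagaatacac
Trp63-205: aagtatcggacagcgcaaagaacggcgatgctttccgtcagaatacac
The summed share of the transcripts with the 12 bases was 47.2% in replicate 1 and 65.0% in replicate 2. Those that skip them summed to 51.6% and 34.0%. The deposited intervals of the leading pair overlapped between libraries: Trp63-205 had 5.51 to 9.34 TPM and 4.33 to 7.68 TPM, and Trp63-201 had 2.12 to 6.07 TPM and 5.72 to 9.13 TPM. By their 3′ ends, alpha-type transcripts held 82.5% and 74.3% of TPM, the gamma type 14.3% and 23.5%, and the beta type 1.97% and 1.21% in replicates 1 and 2. By fragments the alpha type held 91.5% and 88.4%, the gamma type 5.41% and 9.45%, and the beta type 2.44% and 1.58%. The gamma-type transcript Trp63-204 had 2.00 TPM (1.23 to 2.78) in replicate 1 and 4.29 TPM (3.41 to 5.0) in replicate 2, with intervals that did not overlap.

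**Figure D2:**
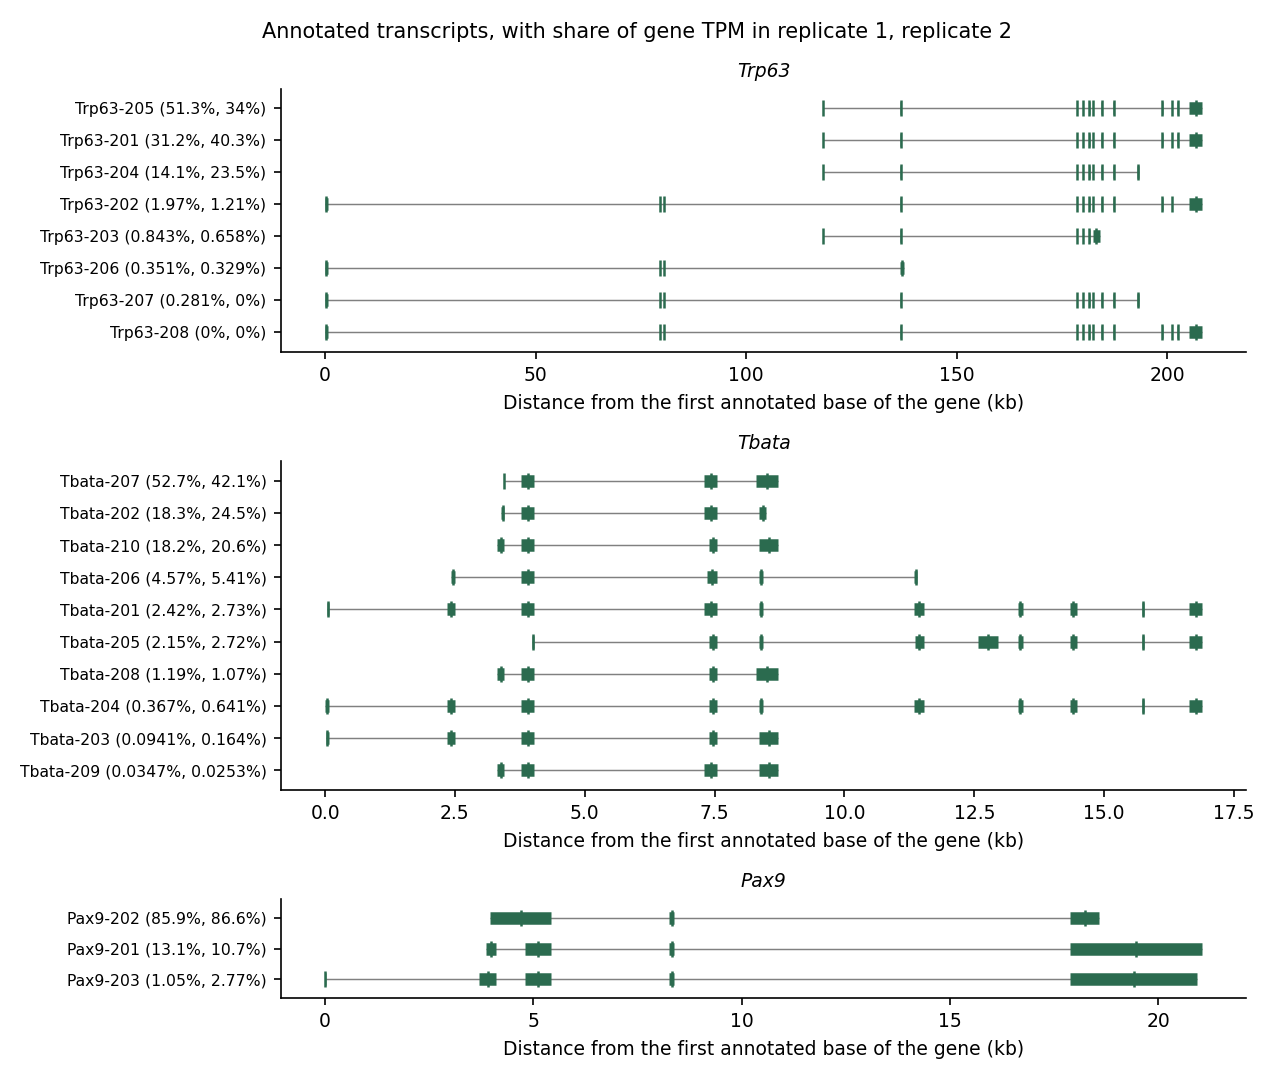
Annotated exons (green) of the transcripts of Trp63, Tbata and Pax9 against distance in kb from the first annotated base of each gene, with each transcript's share of gene TPM in replicate 1 and then replicate 2. The leading Trp63 transcripts lack the upstream exons, the leading Tbata transcripts start and end inside the gene, and the leading Pax9 transcript spans the kept intron. A vertical tick marks the centre of each exon, so that short ones can be seen.

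The genes on a list of p63-associated basal epithelium, of which Krt5 and Krt14 are the basal keratins, had a median of 24.0 TPM, and 9 of 10 reached 1 TPM. Krt5 had 117 and 134 TPM in replicates 1 and 2, Perp, a desmosomal protein, had 68.4 and 74.4 TPM, and Krt14 had 50.0 and 63.5 TPM. The integrin Itga6 had 32.5 and 30.4 TPM, and the basement membrane gene Fras1 was lowest with 0.46 and 0.52 TPM. Markers of keratinised skin were low. Krt10 had 4.07 and 4.84 TPM, Krt1 had 0.88 and 1.17 TPM, Lor had 0.60 and 0.54 TPM, Ivl had 0.23 and 0.21 TPM, and Flg had no fragment.

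Of the products, Prss16 encodes the thymus-specific serine protease, which in cortical epithelium shapes the peptides shown to CD4 T cells. It had 537 TPM in replicate 1 and 801 TPM in replicate 2 (669 ± 187 TPM, SD, n = 2), from 30436 and 60614 fragments (ENSMUSG00000006179, minus strand of chromosome 13 from 22002173 to 22009742). It exceeded Foxn1 by 23.7-fold in replicate 1 and 32.5-fold in replicate 2. The related peptidases of its family were much lower, with 20.4 and 20.1 TPM for Dpp7 and 11.1 and 11.9 TPM for Prcp. The full coding transcript Prss16-201, of 509 codons, held 77.0% and 72.9% of Prss16 TPM and 92.2% and 90.6% of its fragments. The short noncoding transcript Prss16-202 held 16.2% and 19.3% of TPM.

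Tbata, also called Spatial, encodes a protein of cortical epithelium that is also found in testis and brain. It had 605 and 751 TPM in replicates 1 and 2 (678 ± 103 TPM, SD, n = 2), from 15998 and 27685 fragments (ENSMUSG00000020096, plus strand of chromosome 10 from 61171954 to 61188841). It had fewer fragments than Prss16 at about the same TPM, since its mean transcript length was 969 and 975.1 bases, against 1833 and 1773 bases for Prss16. With Prss16 it ranked among the top of the transcriptome: 98.9% of genes at 1 TPM or more lay below each of them.

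Most Tbata RNA was assigned to short transcripts inside the gene. Transcripts that start between the second and the third exons of Tbata-201 held 90.4% of Tbata TPM in replicate 1 and 88.3% in replicate 2, whereas those from the far upstream start held 2.88% and 3.53%. Transcripts that end in or near the fourth exon of Tbata-207 held 90.5% and 88.5%. The leading one, Tbata-207, with a reading frame of 100 codons in the annotation against 393 for Tbata-201, held 52.7% and 42.1%. Tbata-202 held 18.3% and 24.5% and Tbata-210 held 18.2% and 20.6%. By posterior mean TPM, Tbata-202 held 9.37% and 14.9%, below the 18% and 20.7% of Tbata-210. The deposited intervals of Tbata-202 were very wide, from 2.73 to 109 TPM in replicate 1 and from 0.000114 to 179 TPM in replicate 2, and its TPM of 111 and 184 lay above them. The intervals of Tbata-209 were wide too, so the division between these 2 is uncertain. Their sum was 18.3% and 24.6%.

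Tbata-207 and Tbata-210 leave the third exon at the same base and enter versions of the fourth exon that begin 67 bases apart, with the longer version in Tbata-207. The junctions are shown because the longer form carried 53.9% and 43.1% of Tbata TPM in replicates 1 and 2; the first bases of the fourth exon are in capitals.
Tbata-207 (from chr10:61179491, plus strand): agctttctacttctgTCCTGAAGACACAGG
Tbata-210 (from chr10:61179491, plus strand): agctttctacttctgACACCTGGAGGAAGA
The RefSeq window of Tbata (GRCm38.p6, chr10:61171714-61171963, plus strand) precedes the far upstream start, which held 2.88% and 3.53% of the RNA, and has no GACGC on either strand.
Tbata: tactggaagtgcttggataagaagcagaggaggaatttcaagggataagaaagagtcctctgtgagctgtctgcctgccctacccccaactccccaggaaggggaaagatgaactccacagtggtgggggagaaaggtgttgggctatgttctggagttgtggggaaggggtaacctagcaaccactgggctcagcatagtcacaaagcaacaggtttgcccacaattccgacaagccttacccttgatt

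**Figure D3:**
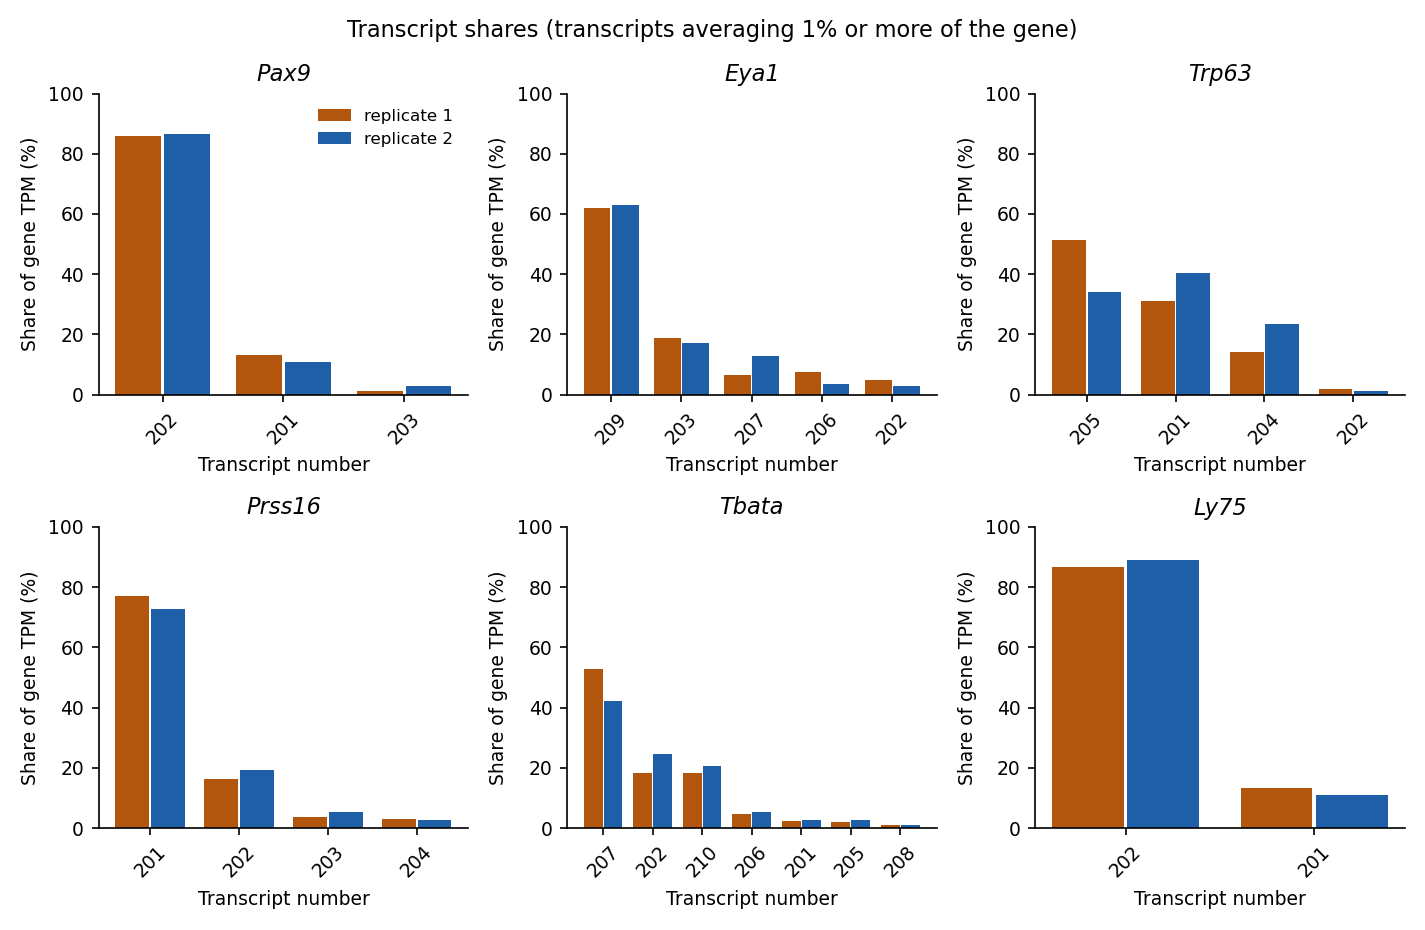
Share of each gene's TPM (%) held by its transcripts in replicate 1 (orange, left) and replicate 2 (blue, right), for transcripts that average at least 1%. The leader is the same in both libraries for Pax9, Eya1, Prss16, Tbata and Ly75, and differs for Trp63, where Trp63-205 held 51.3% and 34.0%.

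Ly75 encodes DEC-205, an endocytic receptor of cortical epithelium and of dendritic cells. It had 14.6 and 16.4 TPM in replicates 1 and 2 (15.5 ± 1.29 TPM, SD, n = 2), from 3303 and 5182 fragments (ENSMUSG00000026980, minus strand of chromosome 2 from 60292103 to 60383303). Dendritic cell markers were present in the same RNA: 10 of 10 reached 1 TPM, none was at 0, and their median was 6.56 TPM. They summed to 272 and 289 TPM in replicates 1 and 2, of which Ccr7 made up most. They were led by Ccr7 (169 and 190 TPM), Sirpa (53 and 44.2 TPM), Siglech (17.1 and 13.7 TPM) and Batf3 (10.5 and 14.5 TPM), of which Ccr7 is also a thymocyte receptor. Epithelial and dendritic Ly75 cannot be told apart here. Both Ly75 transcripts code for 1723 amino acids, and Ly75-202, which is longer by 72 bases at the start and by 1657 at the end, held 86.8% and 89.0% of TPM. The other mannose receptor genes were lower, with 3.02 and 3.64 TPM for Mrc2, 2.10 and 2.04 TPM for Mrc1 and 0.50 and 0.38 TPM for Pla2r1. The neighbouring lectin gene Cd302 had 6.19 and 4.59 TPM.

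The 9 genes were set beside other epithelial genes of the organ. The 13 other cortical genes all reached 1 TPM, with a median of 54.9 TPM. The chemokine Cxcl12 had 215 and 245 TPM, Krt8 had 201 and 232 TPM, the protease Ctsl had 132 and 229 TPM and Krt18 had 170 and 177 TPM in replicates 1 and 2. Krt8 and Krt18 are also on the list of general epithelial markers. Which cells made these RNAs cannot be told from whole thymus. The lowest was the cytokine Kitl with 1.39 and 1.51 TPM. The 13 medullary genes also all reached 1 TPM, with a median of 46.2 TPM. The chemokine Ccl21a had 380 and 437 TPM, Krt17 had 199 and 218 TPM, Krt5 had the values above, Aire, the regulator of tissue antigens, had 70.3 and 73.7 TPM, and the costimulator Cd80 was lowest with 2.65 and 3.60 TPM. Prss16 and Tbata had higher mean levels than every gene of these lists.

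Other regulators of the pharyngeal pouch were mostly low: 9 of 16 reached 1 TPM and their median was 1.09 TPM. Eya2 and Eya3, with the values above, were the highest. Shh was lowest with 0.01 and 0.04 TPM. The pouch also forms the parathyroid, whose master regulator Gcm2 was near 0 with 0.06 TPM in each library. Parathyroid hormone, Pth, had 2.33 and 5.96 TPM, Chga had 4.69 and 8.52 TPM, and the calcium receptor Casr had 0.77 and 0.79 TPM. Gata3 (104 and 67.8 TPM) on that list is also expressed by T cells.

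**Figure D4:**
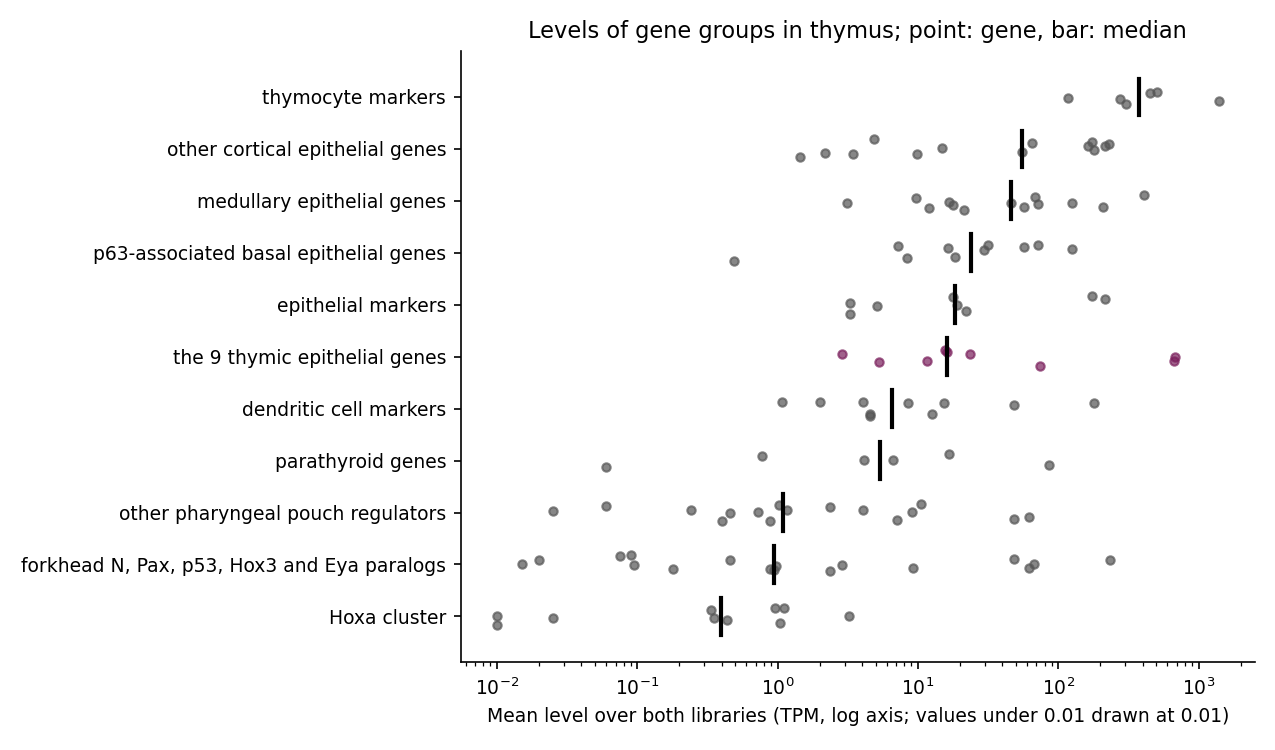
Mean level over both libraries in TPM on a log axis for each gene (point) of 11 groups, with the group's median as a black bar. The 9 thymic epithelial genes (purple) have a median of 16.2 TPM, below the 54.9 TPM of the other cortical genes and above the 1.09 TPM of the other pouch regulators.

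The libraries were compared to see how reproducible these levels were. No gene of the 9 was called by the exact binomial test on counts scaled by TMM, a factor that aligns the bulk of genes, at a Benjamini-Hochberg adjusted p under 0.05 and a difference of at least 2-fold. All 9 passed the filter on low counts. Of all 17198 genes tested, 789 (4.59%) were called, 1.24% as higher in replicate 1 and 3.35% as higher in replicate 2. Without a minimum fold 6 of the 9 passed adjusted p alone, as did 51.7% of all genes tested, so passing it was common. All 6 were lower in replicate 1 (Foxn1, Eya1, Trp63, Prss16, Tbata and Ly75), and 24.9% of all genes passed in that direction and 26.7% in the other. The test compares these 2 libraries and covers counting error only.

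Prss16 had the largest difference of the 9, with a log2 ratio of replicate 1 over replicate 2 of -0.56 (95% interval -0.58 to -0.54). Of 14147 tested genes at 1 TPM or more, 6.24% had a ratio below that. Eya1 followed at -0.40 (-0.59 to -0.21, adjusted p = 9.40e-05 in the exact test) and Tbata at -0.36 (-0.39 to -0.33, exact adjusted p = 5.98e-140). Trp63 was at -0.30, Ly75 at -0.22 and Foxn1 at -0.16 (-0.24 to -0.09, exact adjusted p = 7.94e-05). Pax9 (-0.08), Pax1 (0.02) and Hoxa3 (0.08) had intervals that included 0. The sign of Pax1 turned with the scaling, to -0.06 when libraries were scaled by total counts. The median of the 9 ratios was -0.22, beside -0.01 over all genes tested.

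**Figure D5:**
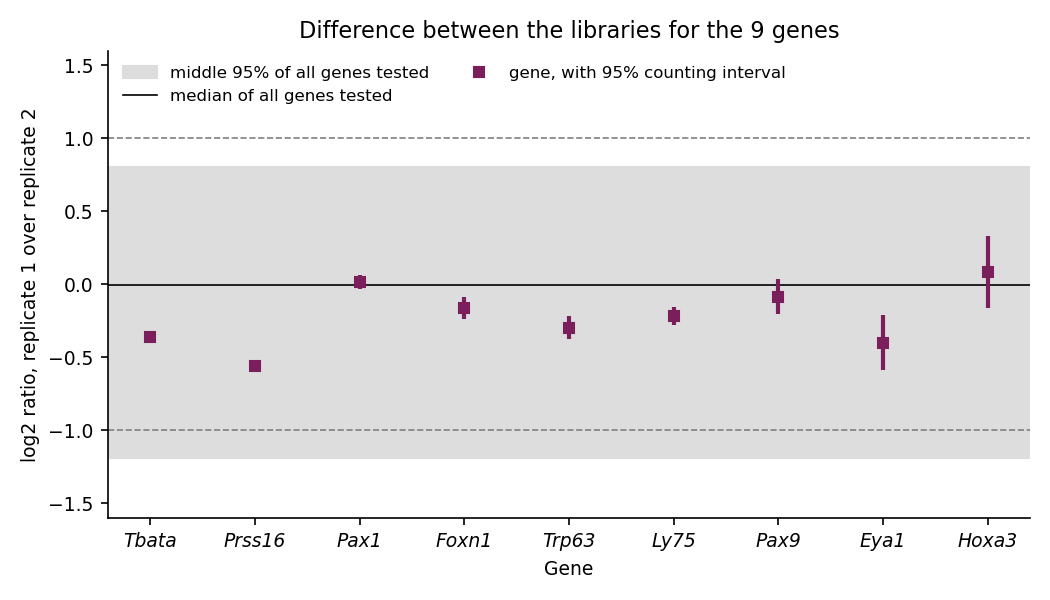
Log2 ratio of replicate 1 over replicate 2 for each gene, with its 95% counting interval, on TMM-scaled counts. The grey band holds the middle 95% of all 17198 genes tested (-1.19 to 0.80), dashed lines mark 2-fold, and all 9 genes lie inside both.

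The other cortical genes leaned the same way, with 13 of 13 ratios below 0 and 11 passing adjusted p without a fold minimum, all lower in replicate 1; none was called. Ctsl had the largest of these at -0.83. Of the 13 medullary genes 9 ratios were below 0 and 4 above, 6 passed adjusted p as lower in replicate 1 and 2 as higher, and none was called. They summed to 1004 and 1130 TPM in replicates 1 and 2, with a median log2 ratio of -0.065. The lean was not confined to cortical genes. Of the 10 p63-associated basal genes 9 ratios were below 0 and 1 above, and 5 passed adjusted p as lower and 1 as higher. Of the 10 dendritic cell markers 7 ratios were below 0 and 3 above, and 5 passed as lower and 2 as higher. Of all genes tested, 24.9% passed as lower in replicate 1. The 6 thymocyte markers split evenly, with 3 ratios below 0 and 3 above, and summed to 3069 and 3020 TPM, from Lck at 1327 and 1454 TPM to Ptcra at 136 and 99.4 TPM. The 5 muscle markers summed to 12.2 TPM in replicate 1 and 174 TPM in replicate 2, with Ckm (10.7 and 163 TPM) and Acta1 (0.77 and 10.1 TPM) called, Tnnt3 at 0.67 and 1.42 TPM, Myh4 at 0.03 and 0.15 TPM, and Myh2 listed at 0 and at 0.02 TPM. Pth was also called lower in replicate 1, and Tbx1, a pouch regulator, was called higher with 1.08 and 0.37 TPM, as was the dendritic gene Cd209a with 1.44 and 0.70 TPM. The noncoding RNA Rn7sk took 5.11% and 8.18% of all TPM. The 6 B cell markers summed to 87.2 and 71.5 TPM, and the 9 fibroblast markers to 109 and 137 TPM, with none of either list at 0 or called. The part of these differences in the ratios of the 9 genes was not tested.

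Some of the 9 share their span with other genes. The antisense gene AI646519 at the 5′ end of Pax1 had 17 and 41 fragments in replicates 1 and 2, beside 6289 and 8383 for Pax1. On the strand of Hoxa3 and inside its span, Hoxa4 had 50 and 81 fragments, Hoxa5 had 73 and 68, and Hoxa6 had 9 and 10, beside 250 and 318 for Hoxa3. Gm28308, which covers Hoxa3 on the same strand, had 4 and 5. The antisense Hoxaas2 had 24 and 52. Whether the counting used strand is not given in the sources used here, so fragments of these pairs may have been exchanged.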

How the data were processed

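Polyadenylated RNA of mouse thymus was sequenced in 2 libraries of 1 group. The authors deposited a gene and a transcript table per library on mm10 with GENCODE M4, per the text files deposited with them. Per the file headers, these hold the expected counts (estimated fragments, not normalised), the TPM with its interval bounds, posterior mean counts and TPM, and lengths in bases. Quantifier, aligner and the division of shared fragments: not given in the sources used here. The authors' mm9 contig and junction lists were not used.

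Symbols and structures came from GENCODE M21 (GRCm38), matched on IDs without version (42462 of 43346 genes); 40 of the 44 transcripts had the same length there. The tables' and M21's lengths of Pax1-202, Prss16-201, Prss16-204 and Tbata-202 differ. Sequences came from M21 transcripts and RefSeq windows (GRCm38.p6), which held 6 of the 9 genes. No protein table was used, so protein features were not analysed here.

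All features together held 49.3 M and 63.1 M fragments in replicates 1 and 2. Levels are deposited TPM with mean and SD; shares are of a gene's summed TPM. Expected counts were rounded, filtered with filterByExpr and tested with a two-sided exact binomial test against TMM-scaled library sizes (edgeR 4.0.16), Benjamini-Hochberg adjusted over 17198 genes; calls needed adjusted p below 0.05 and a 2-fold difference. With 1 library a side there is no test over replicates. Intervals (95%) cover counting error only. The test was checked on simulated counts with known changes, with and without added variation. That check covers the computation and does not show how much these libraries vary beyond counting error. Alternatives were DESeq2 1.42.0 size factors, total counts, no filter, posterior means, CPM and leaving out a library. The genes and lists were chosen with earlier results of these data known. Named are all 9 genes and, of each other list, the 4 with the highest mean TPM, the lowest and those called, or all in lists of up to 6; a few of these are not reported here. Pax5, Pax7, Trp73, Foxn2, Foxn4, Hoxb3, Hoxd3 and Eya4 were named as the nearest relatives of a member, after their values were seen. R 4.3.3 and Python 3.11.15 were used, with scipy 1.17.1, pandas 2.3.3, numpy 2.4.6 and matplotlib 3.10.9.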

Additional observations from a re-analysis of the deposited data

How the results depend on the processing

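With 2 libraries of 1 whole-organ group, the levels describe this tissue only, and division among transcripts rests on the authors' model. The number of the 9 genes at 1 TPM or more was 9 with posterior means or either library alone, and 8 at 5 TPM. Their median level was 16.2 TPM (14.6 to 18.2 TPM with a replicate left out), and 20.5 TPM when rescaled over protein-coding genes; in CPM, which is not scaled for length, it was 53.4. The median of the other cortical genes was 54.9 TPM (50.1 to 59.7 TPM with a replicate left out) and 79.9 CPM. The median share of the leading transcript was 86.2% of TPM (85.9% to 86.6% with a replicate left out) and 90.7% of expected counts. Genes called between the libraries numbered 789, against 782 with DESeq2 size factors, 848 with total counts, 792 with posterior mean counts, 1385 without the filter on low counts, which tests more genes, and 8883 without a minimum fold, of which 6 were among the 9; under the other settings 0 of the 9 were called. The median log2 ratio of the 9 stayed below 0, from -0.29 (total counts) to -0.16 (TPM, pseudocount 1). Only Pax1 changed sign, to -0.059 with total counts (exact adjusted p = 0.0274), where Pax9 also passed the adjusted p (log2 ratio -0.16, exact adjusted p = 0.0183). No paired analysis was possible because the libraries form 1 group.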
